A study of Mus musculus and Homo sapiens with 14 samples.

Results

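The Rab genes encode small GTPases that direct membrane traffic, and their transcripts were followed in cultures of 2 mouse lines. Every mouse gene with a symbol made of Rab, a number and at most 1 of the letters a to d was taken, pseudogenes left out, which gave 59 genes, all annotated as protein coding, of the 35288 genes in the tables. The lines were MB1, tumour cells grown from medulloblastomas of Atoh1-cre:SmoM2 mice at P12, in which Cre driven by Atoh1 switches on an active form of Smoothened, and Oli-neu, a mouse oligodendrocytic line. There were 5 groups of 2 biological replicates each: MB1 co-cultured with Oli-neu, MB1 alone, Oli-neu co-cultured with MB1, Oli-neu co-cultured with the human Group 3 medulloblastoma line D341, and Oli-neu alone. All cells grew in DMEM/F-12 with B-27, N-2, 20 ng/mL EGF and 20 ng/mL bFGF, and in co-culture the lines were kept apart by 30 mm PTFE inserts with pores of 0.4 µm. The question of the design is what each line expresses and how the presence of the other line changes it. Each mouse line is 1 line, so a property of its cell type cannot be told apart from a property of that line.

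Rab proteins switch between a GTP-bound form, which sits on a membrane and recruits effectors such as motors and tethers, and a GDP-bound form, which a chaperone called GDI carries through the cytosol. Exchange factors (GEFs) load them with GTP, GTPase-activating proteins (GAPs) turn them off, and a prenyl group added by Rab geranylgeranyl transferase anchors them. Each compartment carries its own members: Rab1, Rab2 and Rab6 at the ER and Golgi, Rab5 and Rab4 on early endosomes, Rab11, Rab8 and Rab10 on recycling and polarised routes, Rab7 and Rab9 on late endosomes, and Rab3, Rab26, Rab27 and Rab37 on vesicles released in a regulated way. In oligodendrocytes these routes deliver myelin proteins and release extracellular vesicles.

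RefSeq (GRCm38.p6) gave a window of 300 bases around the gene start, 250 before it and 50 after it, for 48 of the 59 Rab genes. The windows of Rab44, Rab37, Rab38, Rab2a, Rab30, Rab27b, Rab26, Rab36, Rab7b, Rab18 and Rab4a were not given. The genes below are shown because they stand for the patterns of level: Rab11a (chr9:64737707-64738006, minus strand), abundant in both lines, Rab3b (chr4:108878820-108879119, plus strand) and Rab29 (chr1:131867027-131867326, plus strand), expressed in MB1 and near 0 in Oli-neu, and Rab27a (chr9:73044560-73044859, plus strand), under 1 TPM in every library. Capitals mark CG dinucleotides.
Rab11a: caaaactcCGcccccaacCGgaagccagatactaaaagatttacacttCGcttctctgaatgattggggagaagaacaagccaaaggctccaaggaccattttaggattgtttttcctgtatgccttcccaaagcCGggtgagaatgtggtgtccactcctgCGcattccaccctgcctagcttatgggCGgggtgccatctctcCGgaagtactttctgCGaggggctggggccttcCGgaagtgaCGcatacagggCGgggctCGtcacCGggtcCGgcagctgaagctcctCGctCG
Rab3b: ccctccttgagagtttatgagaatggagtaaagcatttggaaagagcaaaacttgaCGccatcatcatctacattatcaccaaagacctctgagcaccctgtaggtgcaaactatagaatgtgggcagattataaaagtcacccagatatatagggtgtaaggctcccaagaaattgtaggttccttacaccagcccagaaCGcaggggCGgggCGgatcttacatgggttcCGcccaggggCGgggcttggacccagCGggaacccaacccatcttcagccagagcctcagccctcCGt
Rab29: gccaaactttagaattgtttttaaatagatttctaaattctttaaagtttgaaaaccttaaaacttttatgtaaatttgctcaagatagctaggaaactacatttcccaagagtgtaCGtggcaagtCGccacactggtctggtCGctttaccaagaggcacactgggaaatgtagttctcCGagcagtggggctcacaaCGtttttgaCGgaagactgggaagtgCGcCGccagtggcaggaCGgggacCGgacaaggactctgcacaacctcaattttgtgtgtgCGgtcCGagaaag
Rab27a: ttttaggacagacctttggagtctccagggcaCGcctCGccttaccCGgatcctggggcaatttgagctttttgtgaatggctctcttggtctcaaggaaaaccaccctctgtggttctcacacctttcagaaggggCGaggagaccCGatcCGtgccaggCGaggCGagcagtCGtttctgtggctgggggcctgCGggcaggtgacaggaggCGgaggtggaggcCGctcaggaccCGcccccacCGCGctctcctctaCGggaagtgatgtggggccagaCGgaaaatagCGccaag
Rab11a held 16 CG dinucleotides, Rab3b 8, Rab29 12 and Rab27a 18. Over all 48 windows the median was 20, with a range of 5 to 43, against a median of 14 over the 16800 genes with a window. The 34 windows of Rab genes at 1 TPM or more in all 10 libraries had a median of 24.5 CG dinucleotides, the 7 windows of Rab genes under 1 TPM in all 10 libraries had a median of 11, and the other 7 had a median of 12. Rab27a, with 18, lay above the median of the 7 low Rab genes, and Rab11a, with 16, below that of the 34. Some RefSeq starts lay far from the GENCODE gene start. The distance was 1994 bases for Rab17, which held 5 CG dinucleotides, and 790 bases for Rab3c, a low gene with 11. These medians are descriptions and were not tested. All genes with a window were not split by level, so the split cannot be read as particular to Rab genes.

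Values are TPM, transcript abundances scaled by transcript length and to the same total in every library, so they give no sequencing depth. Pseudogenes took 25.2 to 26.8% of all TPM in the 4 MB1 libraries and 36.0 to 38.2% in the 6 Oli-neu libraries, and mitochondrially encoded genes took 5.73 to 9.56% and 1.93 to 4.53%. Over the 59 Rab genes, replicates correlated on the log2 scale with r between 0.993 and 0.996, a description across genes, which are not independent replicates. Of the line markers, Zic1, a granule neuron lineage gene, averaged 113 ± 16.8 TPM in MB1 with Oli-neu and 74.0 ± 14.6 TPM in MB1 alone (SD, n = 2 each) and was at most 0.0322 TPM in Oli-neu, while Sox10, which defines the oligodendrocyte lineage, was 0.466 to 0.882 TPM in MB1 and 171 to 235 TPM in Oli-neu. Of the other genes on the list for granule neuron precursors and this tumour type, Zic2 was 22.6 to 30.3 TPM in MB1 and 6.45 to 8.97 TPM in Oli-neu, and Ptch1 was 14.2 to 18.4 TPM in MB1 and 3.38 to 5.93 TPM in Oli-neu. In MB1, Neurod1 was 0.781 to 1.32 TPM, Gli2 0.147 to 0.481 TPM, Gli1 at most 0.178 TPM, Atoh1 at most 0.0143 TPM and Barhl1 listed at 0, whereas the oligodendrocyte gene Olig1 stood at 455 to 833 TPM and the astrocyte gene Slc1a3 at 324 to 419 TPM. MB1 is therefore called by its line name. In bulk RNA, fewer cells that express a gene and less of its RNA per cell cannot be told apart.

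The Rab genes had a broad base that both lines shared. All 59 were accounted for: 39 reached 1 TPM in each of the 10 libraries, 10 stayed under 1 TPM in all of them (Rab7b, Rab9b, Rab19, Rab25, Rab27a, Rab27b, Rab37, Rab39, Rab3c and Rab42), and 10 passed 1 TPM in some (Rab3b, Rab3d, Rab15, Rab20, Rab26, Rab29, Rab32, Rab33a, Rab38 and Rab44). Across the 59 genes the mean levels in MB1 and in Oli-neu had a Spearman correlation of 0.930, given as a description. Rab19 was listed at 0 in 9 of the 10 libraries.

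In MB1 the highest mean levels were those of Rab6a, with libraries from 150 to 244 TPM and a median of 207, Rab5c (180 to 205, median 194), Rab11a (176 to 203, median 194), Rab7 (166 to 185, median 176), Rab31 (141 to 176, median 149) and Rab1a (117 to 138, median 131). In Oli-neu they were Rab11a (118 to 149, median 131), Rab4b (96.0 to 150, median 126), Rab1a (106 to 127, median 110), Rab34 (98.4 to 128, median 108), Rab5c (71.3 to 110, median 85.0) and Rab7 (69.6 to 83.9, median 71.4). Neighbours in each order overlapped in range across libraries, except Rab31 and Rab1a in MB1, where every Rab31 value was above every Rab1a value. Compared within each library, Rab11a was also above Rab7 in every MB1 library. The 6 genes held 47.4% of the Rab TPM in MB1 and 49.9% in Oli-neu.

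**Figure D1:**
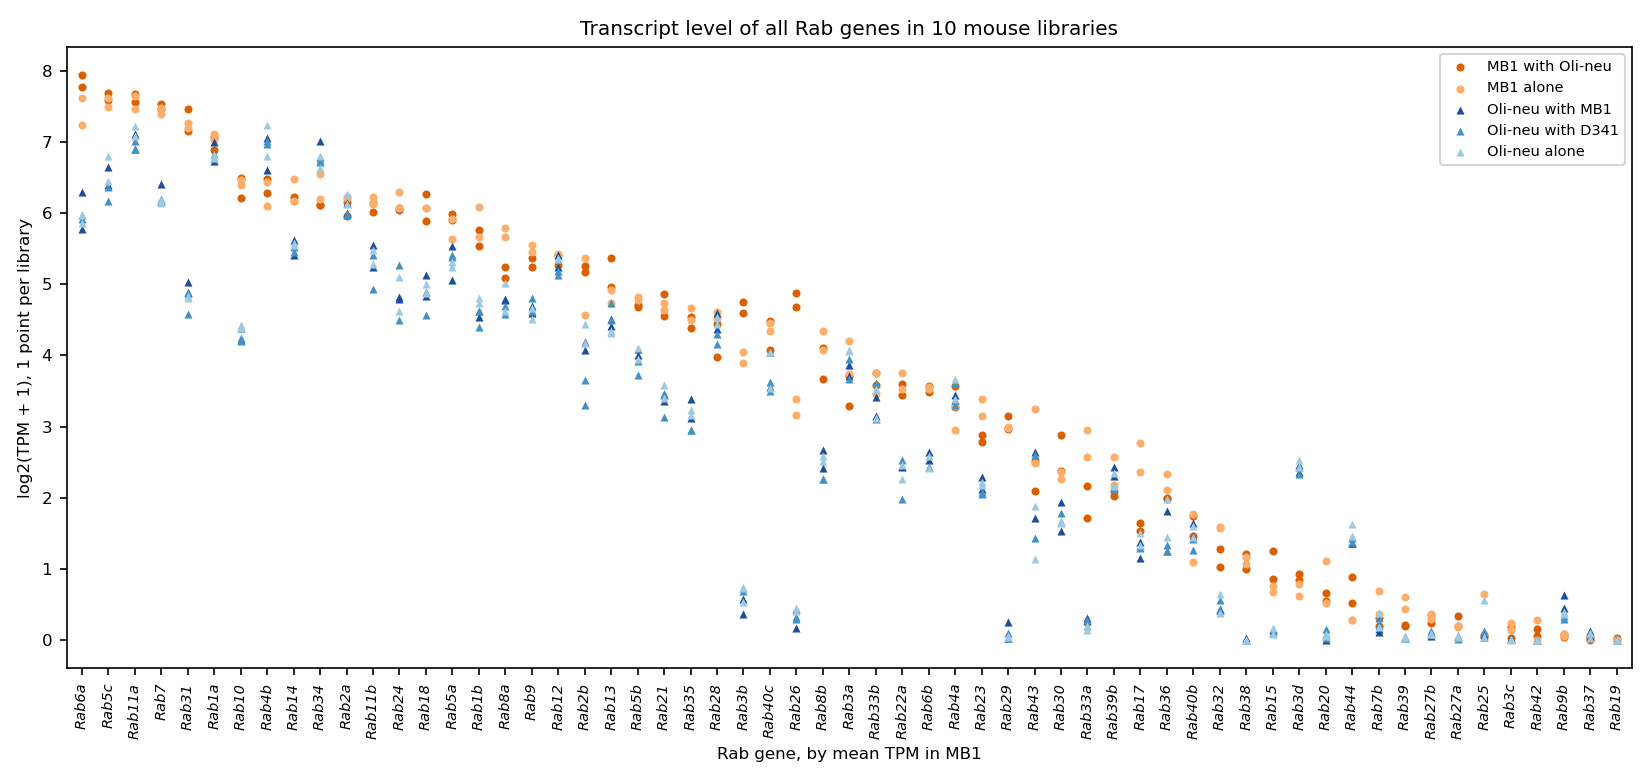
Level of each Rab gene, as log2(TPM + 1), in each of the 10 mouse libraries; genes run from left to right by their mean TPM in MB1, circles are MB1 libraries and triangles Oli-neu libraries. Most genes expressed in both lines lie higher in MB1; Rab3b, Rab26, Rab29 and Rab33a are near 0 in Oli-neu, and Rab3d and Rab44 are higher there.

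The sum over the 59 genes was 2221 ± 92.1 TPM in MB1 with Oli-neu and 2187 ± 23.2 TPM in MB1 alone, and 1300 ± 136 TPM in Oli-neu with MB1, 1222 ± 9.14 TPM in Oli-neu with D341 and 1317 ± 33.3 TPM in Oli-neu alone (SD, n = 2 each). As a share of protein-coding TPM, which leaves out the pseudogenes, the sums were 0.303 ± 0.0127% and 0.293 ± 0.00321% in the MB1 groups and 0.207 ± 0.0181%, 0.197 ± 0.00407% and 0.207 ± 0.00353% in the Oli-neu groups, in the same order. The MB1 libraries lay above all Oli-neu libraries on both scales. The co-culture of MB1 with Oli-neu overlapped MB1 alone, and Oli-neu with MB1 overlapped Oli-neu alone, while both libraries of Oli-neu with D341 were below both of Oli-neu alone.

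MB1 alone differed from Oli-neu alone in many Rab genes, mostly toward higher levels in MB1. In a limma fit of log2(TPM + 1) over 13602 genes and all 10 libraries, 33 of the 47 Rab genes tested passed an adjusted p of 0.05, 30 higher and 3 lower in MB1, where 53.2% of all genes tested passed, 39.6% higher and 13.6% lower. The median log2 fold change was 0.90 over the Rab genes tested and 0.33 over all genes tested. The 2 libraries of each group did not overlap for 36 Rab genes higher in MB1, against 53.2% of all genes tested, and for 5 lower, against 21.6%. Of the 47 tested, 8 passed the filter on low values (1 TPM in at least 2 libraries) in 1 line alone and so had to differ: Rab3b, Rab26, Rab29, Rab32, Rab33a and Rab38 in MB1, and Rab3d and Rab44 in Oli-neu. Among the other 39, which reached it in both lines, 24 were higher, 1 was lower and 14 did not pass. When the libraries were scaled so that the median gene did not differ, 24 Rab genes were higher and 7 lower in MB1 of 46 tested. Over all 13576 genes tested, 3433 were then higher and 3019 lower, with 53.2% instead of 74.4% of all calls in the higher direction. The shares of pseudogene and mitochondrial TPM given above differ between the same libraries. With protein-coding genes alone 27 Rab genes were higher and 5 lower of 48 tested, where 4326 were higher and 2372 lower of all 12575 genes tested.

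**Figure D2:**
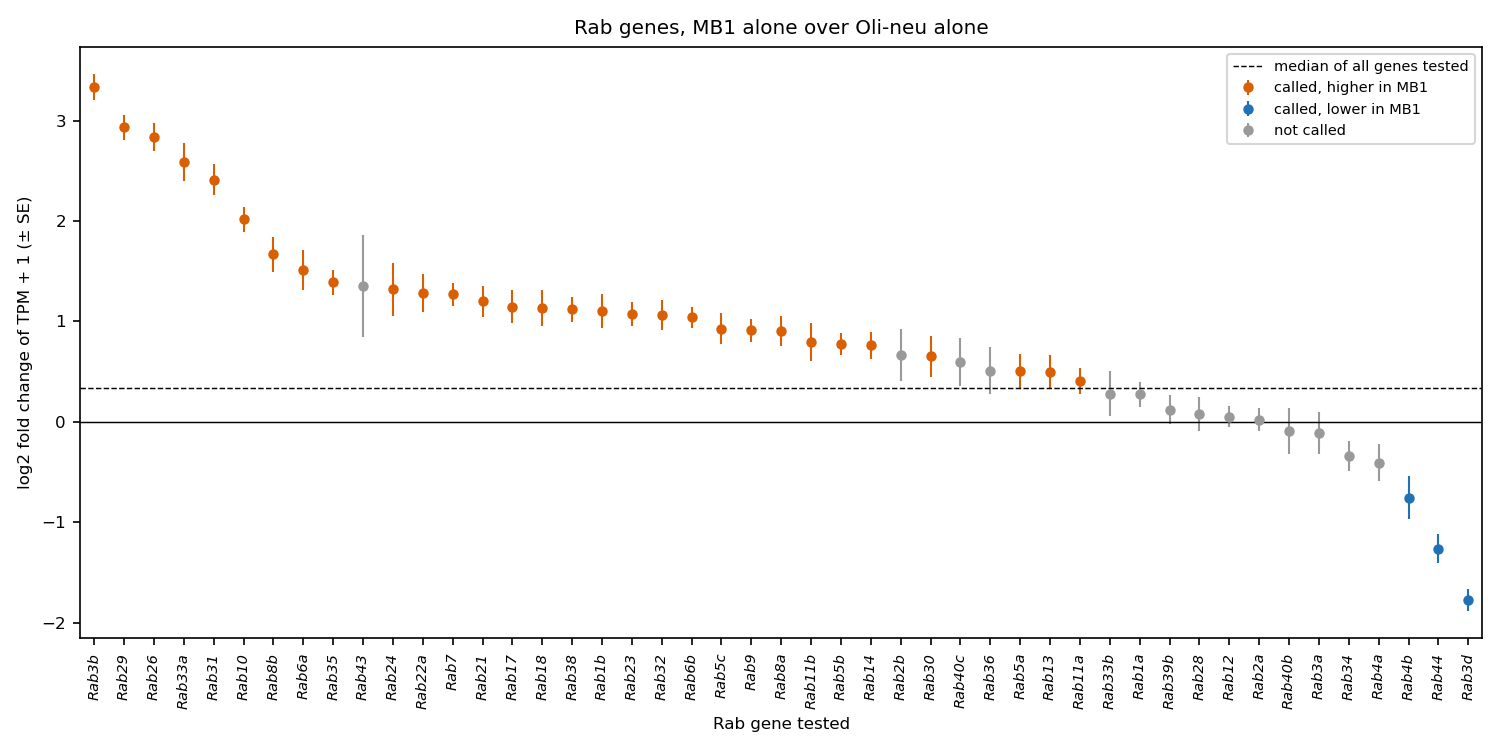
Log2 fold change of TPM + 1, MB1 alone over Oli-neu alone, for each of the 47 Rab genes tested, with its standard error from limma; orange is higher and blue lower in MB1 at an adjusted p of 0.05, and the dashed line is the median of all genes tested, 0.33. Rab3b, Rab29, Rab26, Rab33a, Rab31 and Rab10 lie above 2, and Rab44 and Rab3d below -1.

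Among the genes of regulated secretion, Rab3b and Rab3d of 1 subfamily went opposite ways. Rab3b passed the filter through MB1 alone and Rab3d through Oli-neu alone, so their directions were not open. Rab3b, which sits on secretory and synaptic vesicles, had 15.5 and 13.9 TPM in MB1 alone, against 0.449 and 0.656 TPM in Oli-neu alone, and was at most 0.667 TPM in the other Oli-neu libraries. Its log2 fold change was 3.34 ± 0.13 (SE, limma adjusted p = 1.89e-06). Rab3d, known from exocrine granules, had 0.532 and 0.733 TPM in MB1 alone, against 4.76 and 4.40 TPM in Oli-neu alone (log2 fold change -1.78 ± 0.11, adjusted p = 1.97e-05).

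The groups did not overlap for either gene. Rab3a, the main synaptic vesicle member of neurons, had 12.3 and 17.3 TPM in MB1 alone and 15.8 and 15.9 TPM in Oli-neu alone, so its groups overlapped. In this role group only Rab3a reached the filter in both lines, and it did not pass (limma adjusted p = 0.691). Rab26, found on secretory granules and on synaptic vesicles, had 9.48 and 7.91 TPM in MB1 alone and 0.371 and 0.328 TPM in Oli-neu alone (log2 fold change 2.84 ± 0.14, adjusted p = 6.17e-06). It passed the filter through MB1 alone, so its direction was not open either. The remaining 4 were low throughout. Rab27a, needed for melanosome and granule release, reached 0.257 TPM at most, Rab27b 0.289 TPM, Rab3c 0.185 TPM and Rab37 0.0881 TPM, and none of these 4 was tested.

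Of the 7 late endosome genes 5 were tested and called higher in MB1, where 39.6% of all genes tested were. Rab29, Rab32 and Rab38 among them passed the filter through MB1 alone and so had to be higher, which leaves Rab7 and Rab9. Rab7, the general Rab of late endosomes and lysosomes, had 166 and 177 TPM in MB1 alone, against 69.6 and 71.7 TPM in Oli-neu alone (log2 fold change 1.27 ± 0.12, adjusted p = 0.000109). Rab9, which returns receptors from late endosomes to the Golgi, had 46.0 and 42.9 TPM in MB1 alone and 21.9 and 24.4 TPM in Oli-neu alone (0.91 ± 0.12, adjusted p = 0.000546). Neither gene's groups overlapped.

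Rab29, Rab32 and Rab38 form a subfamily of related genes that act on lysosomes and on lysosome-related organelles such as melanosomes. Rab29 had 6.95 and 6.89 TPM in MB1 alone, against 0.0265 and 0.0434 TPM in Oli-neu alone (log2 fold change 2.94 ± 0.12, adjusted p = 2.85e-06). Rab32 had 1.97 and 2.00 TPM in MB1 alone and 0.568 and 0.296 TPM in Oli-neu alone (1.07 ± 0.15, adjusted p = 0.000824). Rab38 had 1.10 and 1.25 TPM in MB1 alone and was listed at 0 in both libraries of Oli-neu alone (adjusted p = 0.000322). All 3 lay apart between the lines in every one of the 10 libraries. Rab7b and Rab9b, the other 2 genes of the group, were not tested, and Rab9b was at 0.0271 to 0.0640 TPM in MB1 and 0.224 to 0.552 TPM in Oli-neu.

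Of the genes listed here under early endosomes, a list that includes Rab24, 8 of 10 tested were higher in MB1. In the same list 1 was lower, against 39.6% higher and 13.6% lower of all genes tested. Rab31, a relative of Rab5 that works between the Golgi and endosomes and is known for sorting cargo into exosomes, had 146 and 152 TPM in MB1 alone, against 27.0 and 27.5 TPM in Oli-neu alone (log2 fold change 2.41 ± 0.15, adjusted p = 1.96e-05). The Rab5 genes, which control homotypic fusion of early endosomes, differed less. Rab5c had 180 and 195 TPM in MB1 alone and 110 and 86.7 TPM in Oli-neu alone (0.93 ± 0.16, adjusted p = 0.00210), Rab5b had 26.6 and 27.3 TPM and 14.5 and 16.2 TPM (0.77 ± 0.11, adjusted p = 0.000892), and Rab5a had 59.6 and 48.6 TPM and 38.6 and 36.8 TPM (0.50 ± 0.17, adjusted p = 0.0443), again MB1 alone first.

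The groups of all 3 Rab5 genes were apart. Rab21, Rab22a, Rab17 and Rab24 were also called higher, with log2 fold changes from 1.15 to 1.32. Rab24 shares 1258 of its 2015 exonic bases with Prelid1 on the opposite strand. Prelid1 was higher too, with 217 and 301 TPM in MB1 alone, against 156 and 169 TPM in Oli-neu alone. Whether the quantification used the strand is not given in the sources used here, so the level and the call of Rab24 are uncertain. Rab4b, of the rapid recycling route, went the other way, with 85.9 and 67.3 TPM in MB1 alone, against 150 and 111 TPM in Oli-neu alone (-0.76 ± 0.22, adjusted p = 0.0219). Its relative Rab4a, at 8.80 and 6.72 TPM in MB1 alone and 11.8 and 9.43 TPM in Oli-neu alone, did not pass (adjusted p = 0.107). The read-through gene Gm21983 shares 1280 of the 1970 exonic bases of Rab4b on the same strand and stood at 0.338 TPM at most. The Rab4b call was lost without replicate 1 of Oli-neu alone, without replicate 2 of MB1 alone and in a fit of the 4 libraries compared (adjusted p up to 0.127). The Rab5a call was lost without either replicate of Oli-neu alone, without replicate 1 of MB1 alone and in 4 other settings (adjusted p up to 0.567).

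On recycling and polarised routes 8 of 9 genes tested were higher in MB1, against 39.6% of all genes tested. Rab10, which carries basolateral and insulin-regulated cargo to the surface, had 87.5 and 82.9 TPM in MB1 alone, against 20.0 and 20.6 TPM in Oli-neu alone (log2 fold change 2.02 ± 0.12, adjusted p = 1.60e-05). Rab35, which acts in rapid endosomal recycling and in exosome release from oligodendroglial cells, had 24.4 and 21.7 TPM in MB1 alone, against 8.43 and 7.91 TPM in Oli-neu alone (1.39 ± 0.13, adjusted p = 0.000118). Rab8b had 19.4 and 15.9 TPM in MB1 alone and 4.71 and 4.98 TPM in Oli-neu alone (1.67 ± 0.17, adjusted p = 0.000199).

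All of these groups were apart. A pseudogene, Gm20689, is identical to 279 bases of a Rab8b transcript and had 32.3 and 15.4 TPM in MB1 alone and 0 in both libraries of Oli-neu alone, so the level of Rab8b is uncertain where reads of the 2 could be split. Rab8a, of vesicle delivery to the surface and the cilium, and Rab14 had log2 fold changes of 0.90 and 0.76. Rab11a, the central Rab of recycling endosomes, differed little, with 176 and 200 TPM in MB1 alone and 134 and 149 TPM in Oli-neu alone (0.40 ± 0.13, adjusted p = 0.0352), and Rab11b (0.79) and Rab13 (0.50) also passed. The Rab11b call was lost without replicate 1 of Oli-neu alone and with median-ratio scaling (adjusted p up to 0.140). The calls of Rab11a and Rab13 were lost without either replicate of Oli-neu alone, without 1 replicate of MB1 alone (replicate 2 for Rab11a, replicate 1 for Rab13) and with protein-coding genes alone, and reached adjusted p values of 0.918 and 0.508 with median-ratio scaling. Rab12 was level between the lines at 42.0 and 41.0 TPM in MB1 alone and 40.1 and 39.9 TPM in Oli-neu alone (log2 fold change 0.05 ± 0.11).

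At the ER and Golgi 6 of 14 genes tested were higher in MB1, a share near the 39.6% of all genes tested, none was lower and 8 did not pass. Of the 6, Rab33a passed the filter through MB1 alone. Rab6a, which runs retrograde and post-Golgi traffic, had 195 and 150 TPM in MB1 alone, against 57.0 and 61.5 TPM in Oli-neu alone (log2 fold change 1.51 ± 0.20, adjusted p = 0.000652), and the neuronal form Rab6b had 10.5 and 10.8 TPM, against 4.32 and 5.02 TPM (1.04 ± 0.10, adjusted p = 0.000167). Rab33a, a brain form of a Golgi and autophagy Rab, had 4.92 and 6.72 TPM in MB1 alone and 0.102 and 0.147 TPM in Oli-neu alone (2.59 ± 0.19, adjusted p = 3.64e-05). Rab1b, Rab18 and Rab30 completed the 6, and the Rab30 call was lost with any of the 4 compared libraries left out (adjusted p up to 0.195 over all alternatives).

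The groups of Rab6a, Rab6b and Rab33a did not overlap. Rab6a shares 708 of its 3728 exonic bases with Mrpl48 on the opposite strand. Mrpl48 had 59.5 and 63.3 TPM in MB1 alone, against 38.7 and 40.4 TPM in Oli-neu alone, and the use of the strand is not known. Rab1a and Rab2a, the abundant forms for traffic between ER and Golgi, did not pass: Rab1a had 138 and 130 TPM in MB1 alone and 109 and 112 TPM in Oli-neu alone (adjusted p = 0.109), and Rab2a had 73.7 and 73.2 TPM and 75.8 and 69.0 TPM (adjusted p = 0.895). Rab43, with a log2 fold change of 1.35, shares 4164 of 5526 exonic bases with the gene Gm45140 on the same strand and did not pass either. With the median-ratio scaling Rab34, Rab4a, Rab12 and Rab2a were called lower in MB1.

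Rab23, which restrains Sonic hedgehog signalling in the mouse, had 9.48 and 7.91 TPM in MB1 alone, against 3.52 and 3.65 TPM in Oli-neu alone (log2 fold change 1.08 ± 0.12, adjusted p = 0.000267), and its groups were apart. These 2 MB1 values equal those of Rab26 to 3 digits, but the genes differ in every other library. Rab28, the other cilium gene, had 22.0 and 23.5 TPM in MB1 alone and 20.7 and 22.4 TPM in Oli-neu alone (0.07 ± 0.17, adjusted p = 0.743). Rab44, an unusually large Rab, had 0.213 and 0.211 TPM in MB1 alone, against 1.75 and 2.09 TPM in Oli-neu alone (-1.26 ± 0.15, adjusted p = 0.000340), while Rab40b and Rab40c, whose proteins belong to ubiquitin ligases, did not pass. Rab44 passed the filter through Oli-neu alone, so its direction was not open.

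Related Rab genes can be weighed against each other within a library, which removes the scaling between libraries. Rab3b made up 70.5 ± 3.20% of the summed TPM of Rab3a and Rab3b in MB1 with Oli-neu and 50.1 ± 7.94% in MB1 alone, but 2.93 ± 0.821% in Oli-neu with MB1, 4.74 ± 0.921% in Oli-neu with D341 and 3.36 ± 0.841% in Oli-neu alone (SD, n = 2 each). Rab10 made up 62.1 ± 0.474% of Rab8a and Rab10 in MB1 alone and 42.6 ± 5.39% in Oli-neu alone, and Rab33b 65.7 ± 8.54% of Rab33a and Rab33b in MB1 alone and 98.6 ± 0.652% in Oli-neu alone. The MB1 and Oli-neu libraries did not overlap in any of these 3 pairs. Rab3b and Rab33a passed the filter through MB1 alone, so the direction of their pairs was largely fixed. Of the 3 pairs, only Rab8a and Rab10 both reached it in both lines. Rab3d, which passed the filter through Oli-neu alone, was 4.10 ± 0.0691% of Rab3a and Rab3d in MB1 alone and 22.4 ± 1.10% in Oli-neu alone. Rab1b was 30.3 ± 5.45% of Rab1a and Rab1b in MB1 alone and 19.2 ± 0.264% in Oli-neu alone, and Rab8b was 25.3 ± 1.51% of Rab8a and Rab8b in MB1 alone and 15.2 ± 3.06% in Oli-neu alone. Smaller differences were seen for Rab11b, with 27.6 ± 0.727% of Rab11a and Rab11b in MB1 alone and 22.4 ± 0.474% in Oli-neu alone, and for Rab4b. Rab4b was 90.8 ± 0.153% of Rab4a and Rab4b in MB1 alone and 92.5 ± 0.417% in Oli-neu alone. For Rab11b and Rab4b the groups grown alone did not overlap, but the lines did once the co-culture libraries were included. A share shows unequal levels of the 2 genes and not which of them differs.

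**Figure D3:**
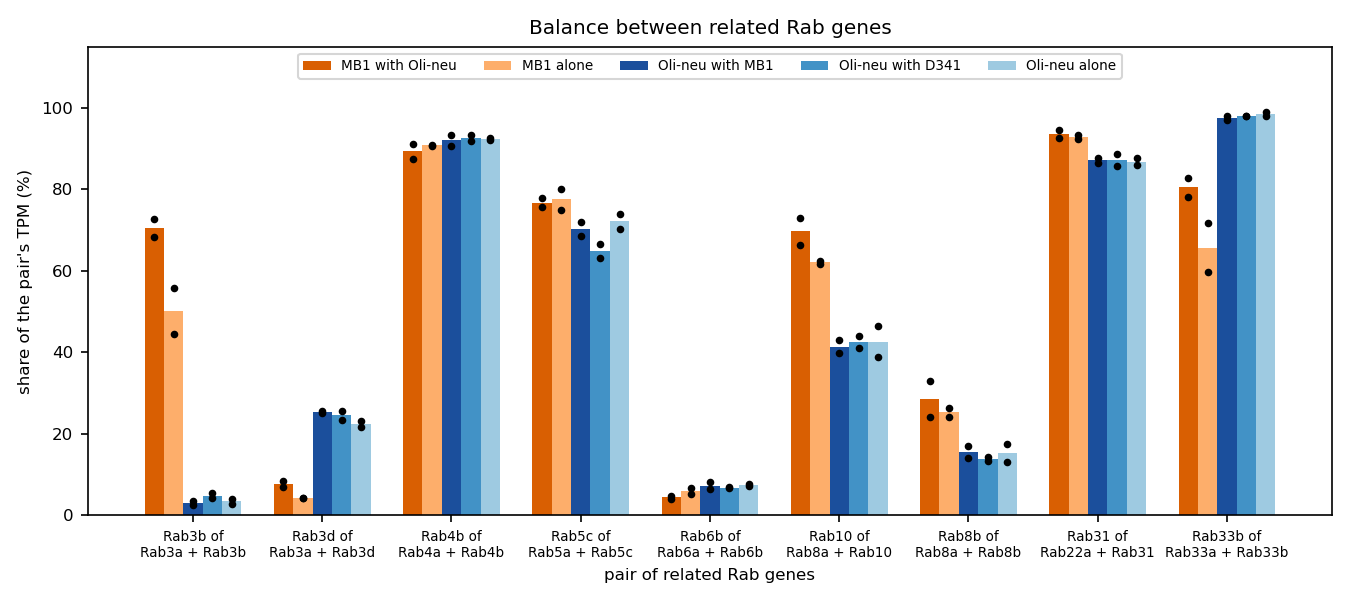
Share of a pair's summed TPM (%) taken by the first-named gene, for 9 pairs of related Rab genes; bars are means over 2 libraries and points the libraries, with the MB1 groups left of the Oli-neu groups. Rab3b takes 70.5% and 50.1% of its pair in the MB1 groups and under 6% in every Oli-neu library, while Rab4b takes about the same share in all 5 groups.

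The co-culture of MB1 with Oli-neu was compared with MB1 alone. No Rab gene passed, of 45 tested, and none of 12407 genes tested passed (limma on the 4 MB1 libraries). At an unadjusted p under 0.05 there were 2 Rab genes with higher levels, Rab26 and Rab3b, and 4 with lower levels, Rab8a, Rab17, Rab23 and Rab33a, where 15.7% of all genes tested had such a p, 3.02% higher and 12.6% lower. The groups were apart for 5 Rab genes higher and 13 lower in the co-culture, against 10.9% and 41.5% of all genes tested. The median log2 fold change was -0.09 over the Rab genes and -0.17 over all genes tested, and with median-ratio scaling the Rab median was 0.09.

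Rab26 had 24.7 and 28.5 TPM in MB1 with Oli-neu, against 9.48 and 7.91 TPM in MB1 alone, or 26.6 ± 2.69 and 8.69 ± 1.11 TPM on average (SD, n = 2 each). Both co-culture libraries were thus above both libraries of MB1 alone, by a ratio of means of 3.06. The log2 fold change was 1.51 ± 0.17 (SE), which ranked 21 of all genes tested by p but did not pass after adjustment (limma adjusted p = 0.216, and 0.0509 to 0.699 over the alternatives, in which the log2 fold change ran from 1.21 to 1.69). Rab26 lies at chr17:24527241-24534210 on the minus strand (GRCm38) and shares 267 of its 2852 exonic bases on the same strand with Traf7. Traf7 was lower in the co-culture, with 73.7 and 95.9 TPM in MB1 with Oli-neu, against 102 and 116 TPM in MB1 alone.

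Rab3b had 26.0 and 23.3 TPM in MB1 with Oli-neu, against 15.5 and 13.9 TPM in MB1 alone, again without overlap (log2 fold change 0.71 ± 0.16, limma adjusted p = 0.282). Rab3a had 12.1 and 8.73 TPM in MB1 with Oli-neu and 12.3 and 17.3 TPM in MB1 alone (-0.47 ± 0.25, adjusted p = 0.401). Its groups were apart by a small margin and in the opposite direction. Summed over the 8 genes of regulated secretion, levels were 64.4 and 61.6 TPM in MB1 with Oli-neu, against 38.3 and 40.5 TPM in MB1 alone, which is 2.84 ± 0.0308% and 1.80 ± 0.0894% of the Rab TPM (SD, n = 2 each). Rab26 and Rab3b carry that sum, which was not tested.

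**Figure D4:**
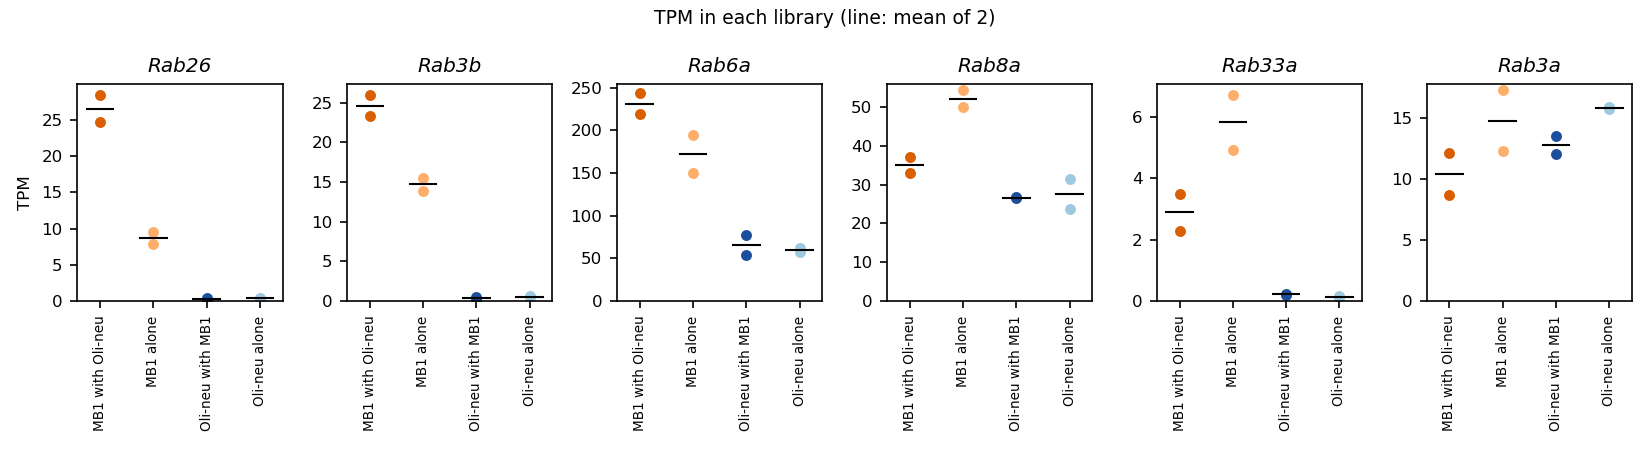
TPM of 6 Rab genes in each library of MB1 with Oli-neu, MB1 alone, Oli-neu with MB1 and Oli-neu alone; points are libraries and lines the mean of 2, and every panel has its own scale from 0. Rab26 stands at 24.7 and 28.5 TPM in MB1 with Oli-neu, above 9.48 and 7.91 TPM in MB1 alone, and under 0.4 TPM in the Oli-neu libraries shown.

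Rab6a had 244 and 219 TPM in MB1 with Oli-neu, against 195 and 150 TPM in MB1 alone (log2 fold change 0.43 ± 0.19, limma adjusted p = 0.350). Of the genes with lower levels, Rab8a had 32.9 and 37.0 TPM in MB1 with Oli-neu and 54.2 and 49.9 TPM in MB1 alone (-0.56 ± 0.15, adjusted p = 0.282), and Rab33a had 3.50 and 2.27 TPM and 4.92 and 6.72 TPM in the same order (-0.82 ± 0.24, adjusted p = 0.285). The groups were apart for all 3 genes. Rab17, an epithelial endosome Rab, averaged 2.00 ± 0.166 TPM in MB1 with Oli-neu and 4.98 ± 1.19 TPM in MB1 alone (-0.98 ± 0.20, adjusted p = 0.282), and Rab23 had 6.35 and 5.87 TPM in MB1 with Oli-neu and 9.48 and 7.91 TPM in MB1 alone (-0.44 ± 0.17, adjusted p = 0.315). With Rab8a lower, Rab10 was 69.7 ± 4.60% of Rab8a and Rab10 in MB1 with Oli-neu, against 62.1 ± 0.474% in MB1 alone.

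Markers moved between the same MB1 groups. The 4 astrocyte genes summed to 428 to 436 TPM in MB1 with Oli-neu and 340 to 375 TPM in MB1 alone, mostly Slc1a3. The 7 oligodendrocyte lineage genes summed to 635 to 763 TPM in MB1 with Oli-neu and 937 to 1098 TPM in MB1 alone, mostly Olig1 and Olig2, and the 5 neuron genes to 9.47 to 9.90 TPM in MB1 with Oli-neu and 10.7 to 13.4 TPM in MB1 alone. The 8 genes of granule neuron precursors and this tumour type summed to 150 to 172 TPM in MB1 with Oli-neu and 107 to 127 TPM in MB1 alone, mostly Zic1. None of these sums overlapped between the groups. The part of these shifts in the Rab values was not tested. Sox10, the defining gene of the partner line, was 0.586 and 0.484 TPM in MB1 with Oli-neu and 0.882 and 0.466 TPM in MB1 alone.

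Whether the co-culture effect differs between the lines was asked with an interaction term, MB1 with Oli-neu over MB1 alone minus Oli-neu with MB1 over Oli-neu alone. No Rab gene passed, where 0.0368% of all genes tested did, and 7 Rab genes had an unadjusted p under 0.05, against 9.4% of all genes tested. The difference was 1.64 ± 0.20 on the log2 scale for Rab26 (limma adjusted p = 0.0931) and 0.87 ± 0.18 for Rab3b (adjusted p = 0.275). With a pseudocount of 5 TPM the Rab26 term passed, with an adjusted p of 0.0215. Rab26 was at most 0.371 TPM and Rab3b at most 0.667 TPM in Oli-neu, so both were tested through MB1 alone. The pseudocount keeps the Oli-neu change of such genes small. Their terms therefore largely restate the change in MB1 and cannot show that the lines respond differently.

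The Oli-neu co-cultures were each compared with Oli-neu alone, so the comparisons share those 2 libraries. With MB1, no Rab gene passed of 41 tested, none of 12280 genes passed, and no Rab gene had an unadjusted p under 0.05, against 6.08% of all genes tested (limma on the 6 Oli-neu libraries). The groups were apart for 2 Rab genes higher, Rab13 and Rab31, against 10.1% of all genes tested, and for 4 lower, Rab1b, Rab3a, Rab10 and Rab44, against 24% of all genes tested. The median log2 fold change was -0.0011 over the Rab genes and -0.06 over all genes tested. Rab3a, with the smallest p, had 12.0 and 13.5 TPM in Oli-neu with MB1, against 15.8 and 15.9 TPM in Oli-neu alone (log2 fold change -0.29 ± 0.13, adjusted p = 0.836).

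The 2 groups of Rab3a did not overlap, but the gap was small. Rab31 had 31.8 and 28.3 TPM in Oli-neu with MB1 and 27.0 and 27.5 TPM in Oli-neu alone (0.14), Rab13, a Rab of tight junctions and surface delivery, had 20.3 and 21.7 TPM and 19.3 and 18.8 TPM (0.13), Rab1b had 22.4 and 23.6 TPM and 25.6 and 26.9 TPM (-0.18), and Rab10 had 19.9 and 17.6 TPM and 20.0 and 20.6 TPM (-0.11), the co-culture first in each. These groups were apart by narrow gaps. The marker Zic1 of the partner line was 0.00468 and 0.0322 TPM in Oli-neu with MB1 and 0.00471 and 0 TPM in Oli-neu alone.

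With D341, no Rab gene passed either, and none of 12280 genes tested passed. The groups were apart for 2 Rab genes higher, Rab5a and Rab13, against 7.12% of all genes tested, and for 19 lower, against 44% of all genes tested. The median log2 fold change was -0.14 over the Rab genes, -0.16 over all genes tested and 0.0016 over the Rab genes with median-ratio scaling. One Rab gene, Rab2b, had an unadjusted p under 0.05, against 13.7% of all genes tested. Rab2b, a Golgi relative of Rab2a, had 11.6 and 8.90 TPM in Oli-neu with D341, against 20.7 and 17.0 TPM in Oli-neu alone and 17.1 and 15.9 TPM in Oli-neu with MB1. Both D341 libraries were below the other 4 Oli-neu libraries.

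The log2 fold change of Rab2b was -0.83 ± 0.17 over Oli-neu alone (SE, limma adjusted p = 0.320). Within the pair, Rab2b was 14.1 ± 2.14% of Rab2a and Rab2b in Oli-neu with D341, against 20.0 ± 0.321% in Oli-neu with MB1 and 20.6 ± 1.15% in Oli-neu alone (SD, n = 2 each). Rab2b shares 2469 of its 4163 exonic bases with Gm43766 and 195 with Tox4, both on the opposite strand, and whether the quantification used the strand is not given in the sources used here. Rab13 had 25.5 and 21.6 TPM in Oli-neu with D341 and 19.3 and 18.8 TPM in Oli-neu alone (0.29 ± 0.12, adjusted p = 0.381), and Rab5c had 71.3 and 81.2 TPM and 110 and 86.7 TPM in the same order (-0.36 ± 0.18, adjusted p = 0.415). Rab5a (0.12) and Rab3a (-0.27) were also apart and did not pass.

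Set directly against each other, Oli-neu with D341 and Oli-neu with MB1 differed in no Rab gene and in none of 12280 genes at the threshold, and 5.13% of all genes tested had an unadjusted p under 0.05. Rab2b was the only Rab gene with such a p (log2 fold change -0.65 ± 0.17, limma adjusted p = 0.839). Rab35 had 6.74 and 6.77 TPM in Oli-neu with D341, against 9.49 and 7.66 TPM in Oli-neu with MB1 (-0.30 ± 0.13, adjusted p = 0.839), and Rab28 had 16.8 and 18.7 TPM, against 23.2 and 19.7 TPM (-0.26 ± 0.13, adjusted p = 0.839). These were among 14 Rab genes whose groups were apart with the D341 co-culture lower, against 28.8% of all genes tested, and 1, Rab44, was higher, against 6.6%.

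**Figure D5:**
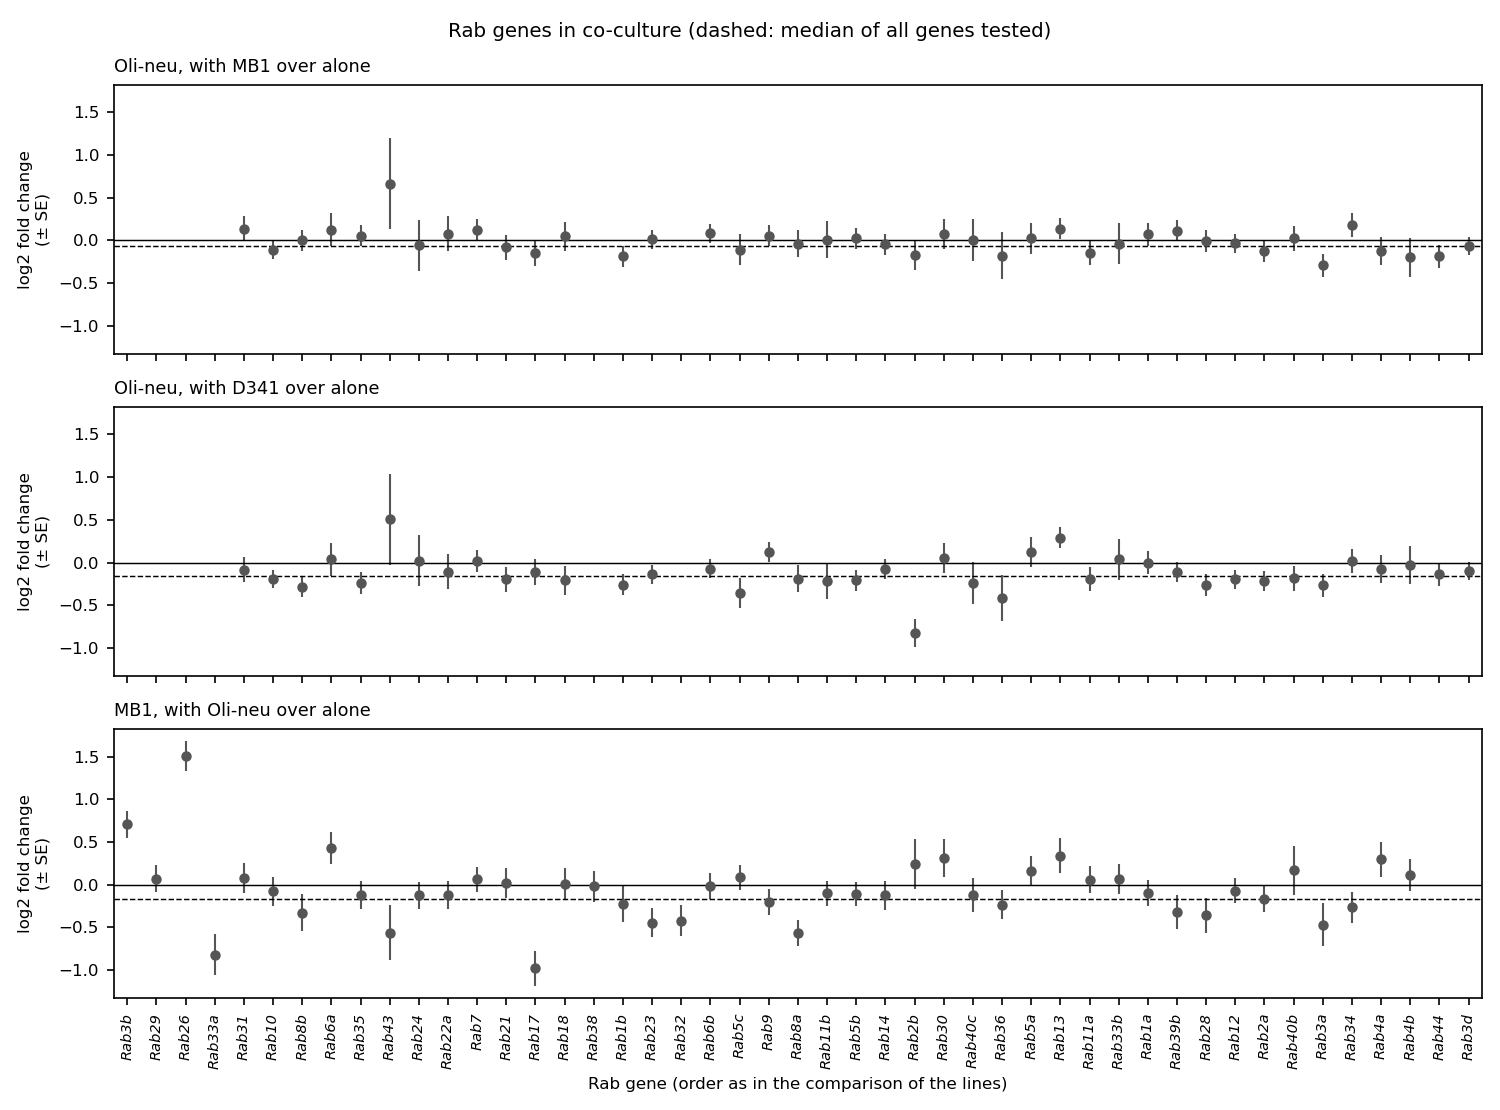
Log2 fold change of TPM + 1 with its standard error for each Rab gene tested, in Oli-neu with MB1 over alone, Oli-neu with D341 over alone and MB1 with Oli-neu over alone; dashed lines are medians of all genes tested, and genes follow the order of the comparison of the lines. Most values lie within 0.5 of 0; Rab26 stands at 1.51 in MB1 and Rab2b at -0.83 in Oli-neu with D341, and none passed the threshold.

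The machinery that loads, anchors and switches off Rab proteins was described with lists of 135 genes, of which 133 were in the tables. In the comparison of the lines 112 were tested, and 42 were higher and 17 lower in MB1 alone than in Oli-neu alone, set against 39.6% and 13.6% of all genes tested. Of the genes for prenylation and GDI, 4 of 8 were higher and 1 was lower. Chm, the escort protein that presents Rabs for prenylation, averaged 8.52 ± 2.21 TPM in MB1 alone and 2.82 ± 0.0626 TPM in Oli-neu alone (SD, n = 2 each), and its relative Chml and the chaperone Rabif were higher too. Rabac1, a Rab acceptor of the Golgi, averaged 148 ± 34.5 TPM in MB1 alone and 262 ± 5.10 TPM in Oli-neu alone.

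Of 39 GEFs tested, 16 were higher and 6 lower, near the 39.6% and 13.6% of all genes tested. Hps1 and Hps4 encode the 2 subunits of BLOC-3, the exchange factor of Rab32 and Rab38. Hps1 had 9.90 and 15.7 TPM in MB1 alone and was listed at 0 in both libraries of Oli-neu alone, whereas Hps4 averaged 17.9 ± 0.691 TPM in MB1 alone and 42.3 ± 2.59 TPM in Oli-neu alone (log2 fold change -1.20 ± 0.15, limma adjusted p = 0.000433). The 2 subunits thus differed in opposite directions. Hps1, at 0 in Oli-neu alone, could only be higher in MB1. Rab32 and Rab38 passed the filter through MB1 alone and so had to be higher as well. The shared direction of these 3 genes is therefore no result about the exchange factor and its Rabs. Gapvd1, a GEF of Rab5, and Dennd2a were higher in MB1, with log2 fold changes of 1.06 and 0.90. Of 32 GAPs tested, 11 were higher and 5 lower, again near those shares of all genes tested. Among the higher were Tbc1d1 (1.22) and Tbc1d4 (1.20), which act on Rab10 and Rab8a, and Tbc1d12 (0.97). Tbc1d22a (-1.73) was among the lower.

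Of 33 effectors tested, 11 were higher and 5 lower, also near the 39.6% and 13.6% of all genes tested. Myo5b, the motor that moves Rab11 vesicles along actin, averaged 0.0473 ± 0.0435 TPM in MB1 alone and 24.1 ± 1.53 TPM in Oli-neu alone (SD, n = 2 each; log2 fold change -4.58 ± 0.12, limma adjusted p = 4.32e-07), a far wider gap than that of Rab11a itself. Unc13d and Sytl2 encode effectors of Rab27, whose own genes were under 1 TPM in both lines. Unc13d averaged 14.8 ± 1.07 TPM in MB1 alone and 56.9 ± 0.294 TPM in Oli-neu alone, and Sytl2 2.70 ± 0.292 TPM and 0.0905 ± 0.0512 TPM. Plin3, a lipid droplet protein that binds Rab9, averaged 0.534 ± 0.0603 TPM in MB1 alone and 5.01 ± 0.420 TPM in Oli-neu alone. Myo5b and Plin3 averaged under 1 TPM, the level of the filter, in MB1 alone, and Sytl2 did in Oli-neu alone. The direction of these differences was therefore not open as it was for genes expressed in both groups.

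In the co-cultures no listed regulator passed. With an unadjusted p under 0.05 there were 4 in Oli-neu with MB1 over alone and 12 in Oli-neu with D341 over alone, both of 106 tested, and 6 of 107 in MB1 with Oli-neu over alone. Over all genes tested, such a p was found for 6.08% in Oli-neu with MB1 over alone, 13.7% in Oli-neu with D341 over alone and 15.7% in MB1 with Oli-neu over alone, so none of the 3 counts exceeded its background. In Oli-neu with D341 over Oli-neu with MB1 there were 9 of 106 tested, against 5.13% of all genes tested. That count was above its background, and the excess was not tested. Rgp1, which with Ric1 forms the exchange factor of Rab6, averaged 8.94 ± 1.87 TPM in Oli-neu with MB1 and 9.68 ± 1.00 TPM in Oli-neu with D341, against 15.6 ± 0.143 TPM in Oli-neu alone (SD, n = 2 each; limma adjusted p = 0.715 and 0.320). Ric1 averaged 5.83 ± 0.488 TPM in Oli-neu with D341 and 8.55 ± 0.749 TPM in Oli-neu alone (adjusted p = 0.320), and the TRAPP subunit Trappc4 averaged 26.5 ± 0.00892 TPM in Oli-neu with MB1 and 41.1 ± 4.46 TPM in Oli-neu alone (adjusted p = 0.715). In MB1 the smallest p belonged to St5, with 16.8 ± 2.71 TPM in MB1 with Oli-neu and 26.0 ± 0.198 TPM in MB1 alone (adjusted p = 0.285), and Tbc1d8b, with 1.82 ± 0.0486 TPM and 3.69 ± 1.20 TPM (adjusted p = 0.298). Between the 2 Oli-neu co-cultures, the level of Myo5b was 17.3 ± 2.63 TPM in Oli-neu with D341 against 25.6 ± 1.08 TPM in Oli-neu with MB1. That of Gcc2, a Golgi tether that binds Rabs, was 5.64 ± 1.70 TPM against 14.0 ± 2.56 TPM in the same order (adjusted p = 0.839 for each).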

How the data were processed

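Poly(A) RNA of 10 mouse libraries (5 groups of 2 biological replicates, per the labels) was sequenced over 75 cycles with a directional kit; D341 libraries were not used here. The deposited values are TPM per gene; per the submitters' processing notes, the authors used Salmon 0.14.1, DESeq2 1.22.2, FastQC 0.11.8 and MultiQC 1.7 with GRCm38, and the annotation release is not given in the sources used here. Depth is unknown, so no count test or counting interval was computed.

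Both mouse tables list the same 35288 genes and every column sums to 1000000 TPM, which was checked, so the 10 libraries were also fitted jointly, though the tables were made separately and each column is scaled alone. Symbols came from GENCODE M21 (35099 identifiers matched). Genes that reached 1 TPM in 2 or more of the libraries fitted were tested as log2(TPM + 1), which understates fold changes of low genes, with limma 3.58.1 in R 4.3.3 (empirical Bayes with trend, two-sided, Benjamini-Hochberg over all genes tested, threshold 0.05). The scripts were tested on simulated data. Exon sharing was read from GENCODE, and transcripts were compared with blastn 2.17.0 (at least 90% identity over 250 bases).

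Role groups and regulator lists were written from textbook knowledge, and members and lists were chosen with earlier results of these data known. Named are called members, co-culture members with the largest changes (at most 3 per direction, at least 5 TPM in 1 group, groups apart), the 6 most abundant per line, those of vesicle release, and up to 4 called regulators per list or, where none was called, the 2 with the smallest p. Rab17 and Rab23 in MB1, Rab28, Rab12, Rab1a, Rab2a, Rab34, Rab40b, Rab40c, Rab43 and Rab44 in the co-cultures, Rab4a, and Traf7 were named after their values were seen. Alternatives were other pseudocounts, filters, scalings, gene sets and fit options, the replicate block and leaving out each library.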

Additional observations from a re-analysis of the deposited data

How the results depend on the processing

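No called Rab gene reversed its direction in any of the 15 alternatives of the line comparison, and 27 of 33 calls held in each alternative that tested the gene; the others (Rab4b, Rab5a, Rab11a, Rab11b, Rab13 and Rab30) were lost in some, with 26 to 37 calls in all. The Rab median of that comparison, 0.90, was 0.65 with a pseudocount of 5 TPM, 0.65 with no filter, 0.47 with median-ratio scaling, 0.97 without mitochondrially encoded genes, 0.69 with protein-coding genes alone, and 0.85 to 0.89 with a library left out. The median for Oli-neu with D341 over alone, -0.14, was -0.071 with a pseudocount of 5 TPM, -0.075 with no filter, -0.19 with a filter of 5 TPM and 0.0016 with median-ratio scaling; for MB1 with Oli-neu over alone, median-ratio scaling gave 0.087. For Oli-neu with MB1 over alone it ran from -0.075 to 0.055 with a library left out. The difference between the lines' co-culture effects had a median of 0.0825 with median-ratio scaling and of -0.10 to 0.027 with a library left out, and 1 Rab call, Rab26, with a pseudocount of 5 TPM. The cause was not tested.

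No Rab gene was called in the 4 co-culture comparisons under any alternative. Over all genes, leaving out replicate 1 of MB1 alone gave 61 higher and 51 lower calls in MB1 with Oli-neu over alone, where all 4 libraries gave 0; the other library left is assumed to vary like the other group. The interaction gave 12 higher and 8 lower calls with a pseudocount of 5 TPM, and 29 and 28 with no filter, against 3 and 2.

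The replicate block gave 0 Rab calls in each co-culture comparison and 35 in the line comparison. Same-numbered libraries deviated together in Oli-neu (r 0.593 to 0.618) and not between the MB1 groups (r = -0.115). In the joint fit, MB1 alone deviated with the same-numbered libraries of the Oli-neu groups (r 0.411 to 0.517) and MB1 with Oli-neu did not (r -0.0625 to -0.0515), but 2 numbers do not show a pairing. A crossed pairing in MB1, chosen after seeing the data, gave 0 calls of Rab genes and 0 of all genes. TPM limits what low genes can show, since depth is unknown.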
